A study of Mus musculus with 13 samples.

Results

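The Hedgehog pathway was followed through 9 genes: the ligands Shh and Ihh, the receptor Ptch1, the signal transducer Smo, the decoy receptor Hhip, the transcription factors Gli1, Gli2 and Gli3 and their inhibitor Sufu. They were found by symbol in the annotation of the platform, and all 9 had a probe set of their own among the 17097 genes measured. Each gene was read at 1 probe set that names it alone, the one with the highest mean log2 intensity over all arrays.

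In Hedgehog signalling, a secreted ligand binds Patched1 at the primary cilium and lifts its block on Smoothened, which then lets Gli proteins act as activators. Without ligand, Gli proteins are held by Sufu, phosphorylated and clipped into repressors. In the gut the ligands are made by the epithelium and most of the response is in the mesenchyme underneath, whereas in the hair follicle the epithelium itself responds and follicle growth depends on Shh. Ptch1, Hhip and Gli1 are themselves transcribed in response to the pathway in many tissues, which makes them common readouts of it.

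RNA came from Lgr5-EGFP-ires-CreERT2 mice on a C57BL/6 background, a knock-in line in which GFP and the inducible Cre stand under the Lgr5 promoter; all groups shared this genotype, and no treatment or age was given in the labels. The 13 Affymetrix arrays held 4 of GFPbright cells, taken as intestinal stem cells, 3 of GFPdim cells of the intestine, their near descendants, 3 of villus cells, and 3 of hair follicle cells, which the titles call GFPdim. Per the labels a sort pooled 3 mice; neither labels nor methods tell whether this also held for skin. The methods place FACS before RNA isolation for all groups, whereas the labels call the GFP populations sorted and not the villus cells, and a gate for villus cells is not named. The arrays of a group were taken as replicates, and p-values measure the spread between these arrays. With 3 or 4 arrays in a group, precision is limited by their number.

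Lgr5, the gene that marks the sorted cells, had an intensity of 532.8 to 793.1 in GFPbright, 12.6 to 66.1 in GFPdim, 4.8 to 6.8 in villus and 478.8 to 687.1 in hair follicle. One label field names the opposite Lgr5 level from the title for 3 arrays, GFPbright 2, GFPdim 2 and GFPdim 3, and these carried Lgr5 at 532.8, 66.1 and 14.0. It also gives a high level for the hair follicle and villus arrays. Groups followed the titles, with the hair follicle arrays set apart by their source, and calls on the genes named that are lost without those 3 arrays are given with their value there. All 8 measured genes of the intestinal epithelium list were expressed in the 3 intestinal groups, and all 10 hair follicle keratinocyte genes in the hair follicle group, where Krt5 lay at 4417.9 to 5335.4. Intensities are on the linear scale after normalization by the authors, and a gene was called above the receptor level, used here as a detection limit, where its intensity passed 7.55. This is the 95th percentile of 86 probe sets for smell and taste receptors. The marker lists were not exclusive to their group. On average 5 of the 8 intestinal epithelium genes also passed this level in hair follicle, with Epcam at 1476.4 to 2114.1. Of the 10 keratinocyte genes 5 passed it in GFPbright, with Itga6 at 918.6 to 1029.9, 4 in GFPdim and 5 in villus.

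Ihh, Indian hedgehog, was the ligand with signal in the intestine, and it rose from stem cells to villus. Its intensity was 8.2, 10.2, 14.0 and 11.1 in the GFPbright arrays, 18.8, 41.0 and 26.8 in GFPdim and 54.8, 73.1 and 46.2 in villus. The 3 hair follicle arrays gave 5.4, 4.0 and 4.9, all under the receptor level. No 2 groups overlapped, and the order was villus, GFPdim, GFPbright and hair follicle.

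Compared with GFPbright (10.9 ± 2.41, SD, n = 4), Ihh was higher in GFPdim (28.9 ± 11.2, n = 3) by 1.36 on the log2 scale (SE 0.25, limma adjusted p = 0.00196). In villus (58.0 ± 13.7, n = 3) it was 5.34-fold higher than in GFPbright (log2 difference 2.42, SE 0.25, adjusted p = 1.36e-06) and also higher than in GFPdim (1.05, SE 0.27, adjusted p = 0.00526). Against the hair follicle it was at least 7.55-fold higher in villus, at least 3.63-fold higher in GFPdim and at least 1.41-fold higher in GFPbright, with adjusted p-values of 3.16e-08, 1.99e-06 and 0.00118. Without the 3 arrays of opposite labels the difference between GFPdim and GFPbright was 0.79 and no longer called (adjusted p = 0.134), with 1 GFPdim array left. In bulk samples such as these, fewer cells that express a gene and less RNA per cell cannot be told apart. The summed intensity of 6 enterocyte marker genes moved in the same order, from 1670.7 to 2667.3 in GFPbright and 6997.2 to 10318.5 in GFPdim to 49344 to 51133.2 in villus, and its part in the Ihh values was not tested.

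Shh, Sonic hedgehog, had no signal above the receptor level on any array. Its intensities ran from 3.1 to 4.8, and the group means from 3.67 in GFPdim to 4.70 in villus. The fit called villus over GFPbright by 0.36 on the log2 scale (SE 0.12, adjusted p = 0.0207) and over GFPdim by 0.37 (SE 0.13, adjusted p = 0.0298), but no fold is given because both groups of each pair are under the level. The first call was lost without GFPbright 1 (adjusted p = 0.058), GFPbright 2 (0.0508) or villus 1 (0.0631). The second was lost without GFPdim 3 (0.144), without any 1 of the villus arrays (0.0556 to 0.0789) and without the 3 arrays of opposite labels (0.258). A second probe set names Shh together with 9530036O11Rik and ran from 7.9 to 13.1 in GFPbright, 7.0 to 12.9 in GFPdim, 6.1 to 9.0 in villus and 10.7 to 20.6 in hair follicle. Its signal cannot be assigned to Shh.

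Ptch1, the ligand receptor that keeps Smo silent, fell along the crypt to villus order and was highest in the hair follicle. Its intensity was 217.8, 182.2, 221.9 and 230.9 in GFPbright, 67.0, 111.8 and 90.8 in GFPdim, 26.1, 25.5 and 22.2 in villus, and 361.9, 990.5 and 240.4 in hair follicle. The 4 groups did not overlap. The hair follicle arrays were far apart, with the second one above the other two, while the villus arrays were close together.

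The mean of Ptch1 was 213.2 ± 21.4 in GFPbright and 24.6 ± 2.10 in villus, a fall by 3.11 on the log2 scale (SE 0.35, adjusted p = 2.86e-06) or 8.65-fold. In GFPdim (89.9 ± 22.4) it was lower than in GFPbright by 1.27 (SE 0.35, adjusted p = 0.0219), and in villus lower than in GFPdim by 1.84 (SE 0.37, adjusted p = 0.000954). These errors use a spread shared by all 4 groups. The log2 SD of Ptch1 was 1.05 in hair follicle, against 0.15 in GFPbright, 0.37 in GFPdim and 0.13 in villus. With the sort as a fixed block in 6 GFPbright and GFPdim arrays, without hair follicle, Ptch1 was called lower in GFPdim. The GFPdim to GFPbright call was not stable: the adjusted p was 0.0507 without GFPbright 1, 0.0536 without GFPbright 4, 0.0985 without GFPdim 1, 0.0589 without GFPdim 3 and 0.0662 without the 3 arrays of opposite labels, with the same direction each time. The villus to GFPdim call was also lost without those 3 arrays (log2 difference -1.45, adjusted p = 0.0726).

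In hair follicle Ptch1 (530.9 ± 402.6) was 2.08-fold over GFPbright (log2 difference 1.06, SE 0.35, adjusted p = 0.0207), 5.02-fold over GFPdim (adjusted p = 0.00011) and 18.0-fold over villus (adjusted p = 2.15e-07). Without the second hair follicle array the difference from GFPbright was 0.47 (adjusted p = 0.0818), and without GFPbright 2 its adjusted p was 0.0528. A second Ptch1 probe set was close to the receptor level in all groups, with means of 6.23 to 8.43, and gave no call.

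Smo, the membrane protein that passes the signal on, had the same order of groups as Ptch1 with a narrower spread. Its intensity was 163.9, 166.5, 143.2 and 149.2 in GFPbright, 46.9, 44.2 and 42.1 in GFPdim, and 7.9, 5.5 and 6.3 in villus, where 1 of 3 arrays passed the receptor level. The hair follicle arrays gave 206.9, 302.7 and 215.7. All 4 groups were apart from each other.

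The mean of Smo fell 3.50-fold from GFPbright (155.7 ± 11.3) to GFPdim (44.4 ± 2.41), with a log2 difference of -1.81 (SE 0.15, adjusted p = 2.68e-06). From GFPdim to villus (6.57 ± 1.22, a mean under the receptor level) it fell by 2.77 on the log2 scale (SE 0.17, adjusted p = 1.11e-08), and villus was lower than GFPbright by 4.58 on the log2 scale (SE 0.15, adjusted p = 2.33e-11). Hair follicle (241.8 ± 53.0) was 1.53-fold above GFPbright (0.62, SE 0.15, adjusted p = 0.00391), 5.37-fold above GFPdim and above villus by 5.20 on the log2 scale (SE 0.17, adjusted p = 3.59e-12). A second Smo probe set, with means of 78.6 in GFPbright, 24.2 in GFPdim, 7.67 in villus and 104 in hair follicle, gave the same directions, but its difference between hair follicle and GFPbright was 0.40 with an adjusted p of 0.0571.

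**Figure D1:**
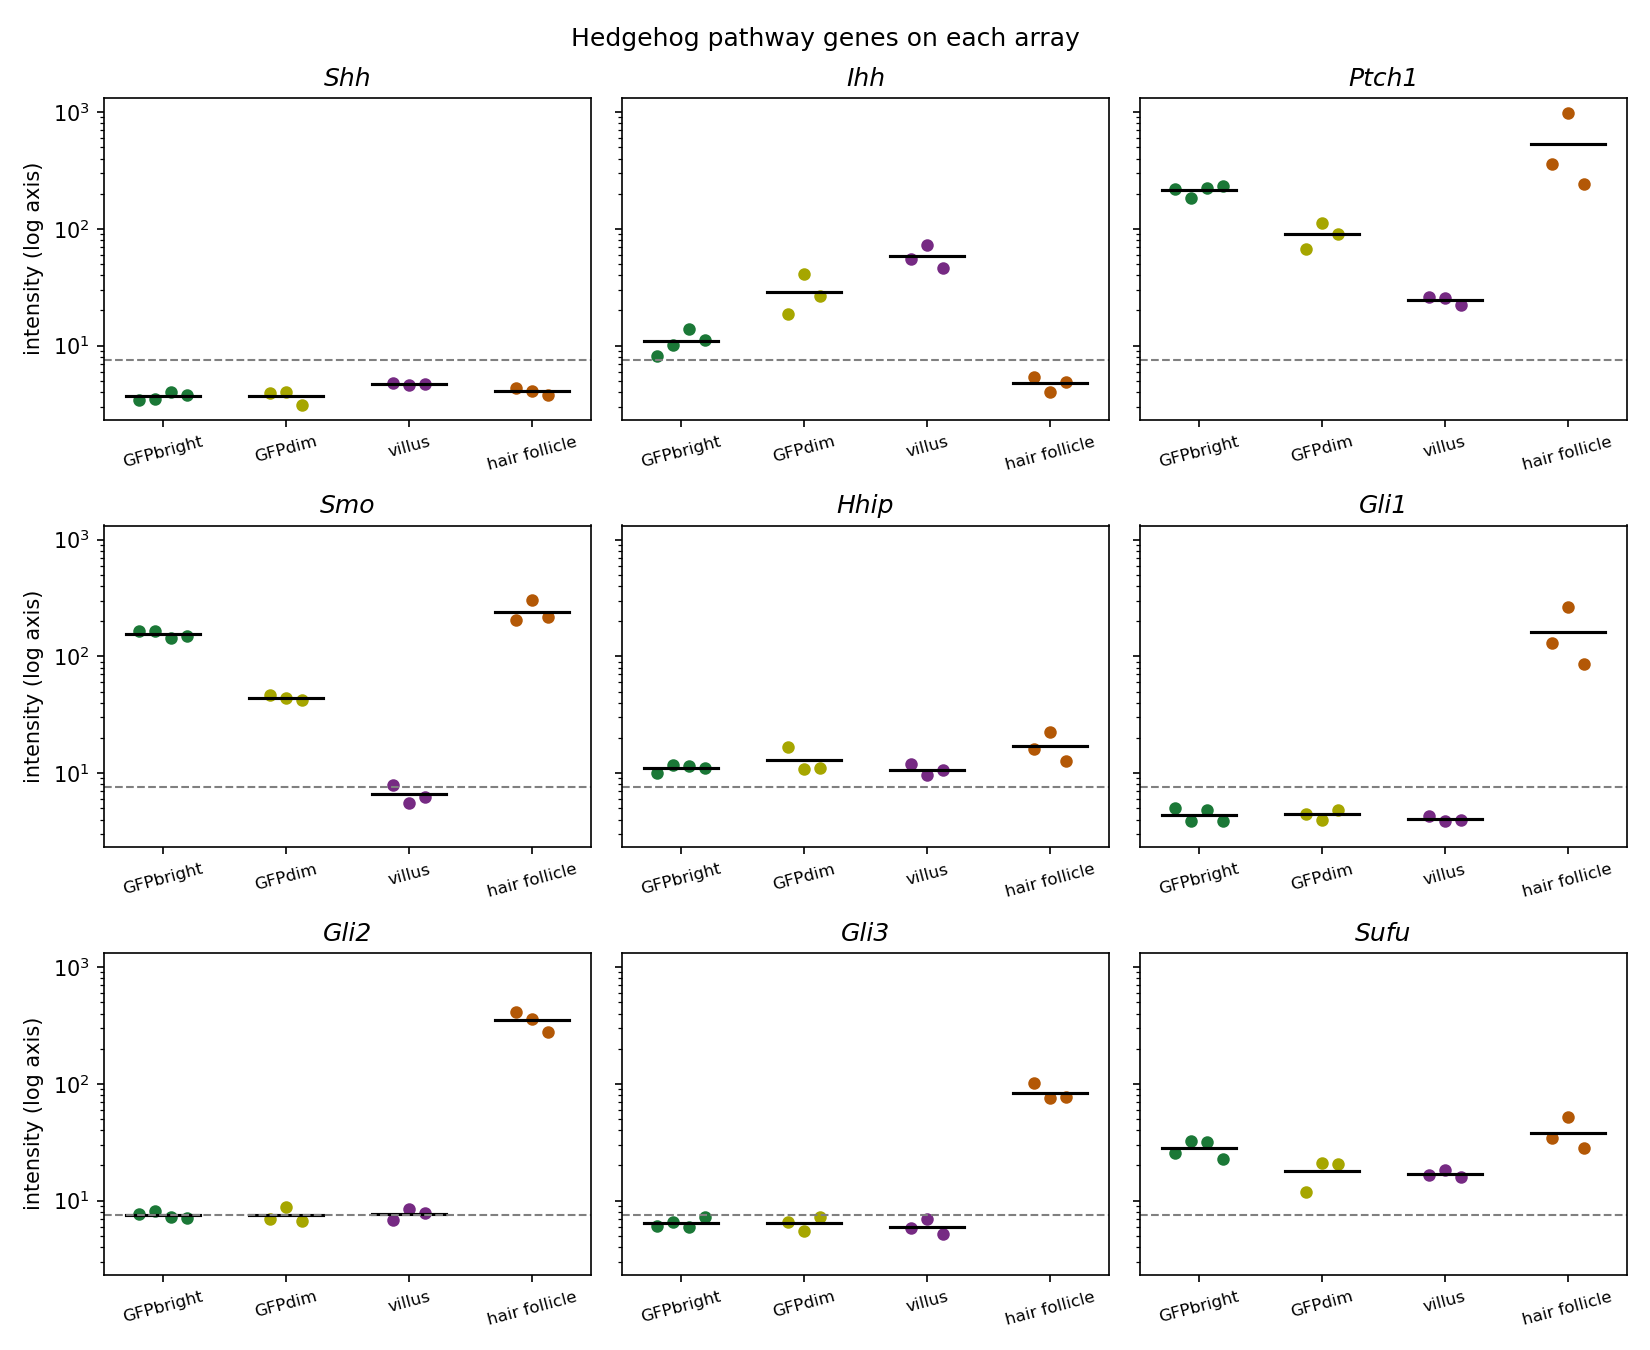
Intensity of the 9 Hedgehog pathway genes on each of the 13 arrays, on a log axis, with 1 panel per gene. Points are arrays, bars are group means and a dashed line marks the receptor level of 7.55. Ihh climbs from GFPbright to villus while Ptch1 and Smo descend, and the 3 Gli genes stand well above the line in hair follicle alone.

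Hhip, which binds ligand and withholds it from Ptch1, was low in all groups and varied little. It was measured at 10.1, 11.7, 11.5 and 11.1 in GFPbright, 16.8, 10.9 and 11.1 in GFPdim, 11.9, 9.6 and 10.7 in villus, and 16.1, 22.7 and 12.7 in hair follicle. The 3 intestinal groups overlapped and no difference between them was called: the log2 difference was 0.19 for GFPdim minus GFPbright (adjusted p = 0.604) and -0.05 for villus minus GFPbright (adjusted p = 0.862). Hair follicle was higher than GFPbright by 0.59 (SE 0.19, adjusted p = 0.0206) and than villus by 0.64 (SE 0.21, adjusted p = 0.017), whereas the difference from GFPdim was 0.40 (adjusted p = 0.144), and called without GFPdim 1 (0.60, adjusted p = 0.0252) or the third hair follicle array (0.59, adjusted p = 0.0318). Both calls rested in part on the second hair follicle array, without which they were 0.37 (adjusted p = 0.125) and 0.42 (adjusted p = 0.0875). The call over GFPbright was also lost without GFPbright 1 (adjusted p = 0.0532) and that over villus without villus 2 (adjusted p = 0.0635). Hhip has 4 probe sets, and the others were under the receptor level, apart from 1 of them on 1 hair follicle array. That probe set gave both calls, over GFPbright (0.88, adjusted p = 0.0113) and over villus (0.83, adjusted p = 0.0198). The remaining pair gave neither, with adjusted p-values of 0.196 and 0.225 against GFPbright and 0.152 and 0.298 against villus.

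Gli1, an activator that is itself switched on by the pathway, was found in hair follicle only among the groups measured. The hair follicle arrays gave 129.7, 265.4 and 86.5, and the 10 intestinal arrays gave 3.9 to 5.0, all under the receptor level. Hair follicle (160.5 ± 93.4) was thus at least 19.1-fold higher than GFPbright (log2 difference 5.04, SE 0.27, adjusted p = 1.41e-09), and the same bound held against GFPdim and villus. The hair follicle arrays were far apart and their order was that of Ptch1, with the second array highest.

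Gli2, the main activator early in the response, was measured at 414.3, 360.2 and 275.8 in hair follicle. In the intestine its values lay around the receptor level: 7.7, 8.1, 7.2 and 7.1 in GFPbright, 6.9, 8.8 and 6.7 in GFPdim, and 6.8, 8.4 and 7.8 in villus. Above the level were 2 of 4 GFPbright, 1 of 3 GFPdim and 2 of 3 villus arrays, so no fold is given. Hair follicle (350.1 ± 69.8) was above GFPbright by 5.52 on the log2 scale (SE 0.15, adjusted p = 1.15e-12), above GFPdim by 5.54 and above villus by 5.50. The differences between intestinal groups were within 0.04 on the log2 scale, with adjusted p-values of 0.868 to 0.959.

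Gli3, which acts mostly as a repressor when the pathway is off, was measured at 100.8, 75.1 and 77.1 in hair follicle and at 5.2 to 7.3 in the intestine, under the receptor level on each of the 10 arrays. Hair follicle (84.3 ± 14.3) was at least 11.1-fold higher than each intestinal group, with a log2 difference from GFPbright of 3.70 (SE 0.15, adjusted p = 6.09e-11). Without the second hair follicle array the differences of Gli1, Gli2 and Gli3 from GFPbright were 4.60, 5.49 and 3.78 and all were called. A second Gli2 probe set also stood out in hair follicle, with a mean of 120.2 against 6.37 to 8.53 elsewhere, whereas a second Gli3 probe set had no signal in any group.

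Sufu, the cytoplasmic inhibitor of the Gli proteins, was expressed in all groups within a small range. It was measured at 25.8, 32.4, 31.9 and 22.8 in GFPbright, 11.8, 21.2 and 20.7 in GFPdim, 16.6, 18.3 and 15.9 in villus, and 34.3, 51.9 and 28.2 in hair follicle. GFPbright lay above both other intestinal groups without overlap, while GFPdim and villus overlapped. Villus was lower than GFPbright by 0.72 on the log2 scale (SE 0.23, adjusted p = 0.0184). GFPdim differed from GFPbright by -0.69 (SE 0.23) with an adjusted p of 0.0596, and from villus by less than its error.

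The Sufu calls between intestinal groups turned with single arrays. For villus against GFPbright the adjusted p was 0.0516 without GFPbright 2, 0.0522 without villus 1 and 0.0602 without villus 3. For GFPdim against GFPbright it was 0.0441 without GFPdim 2, 0.0299 without the second hair follicle array, 0.0467 without the third, 0.0291 without the 3 arrays of opposite labels and 0.0364 with the sort as a random block. In hair follicle (38.1 ± 12.3) Sufu was 2.13-fold over GFPdim (adjusted p = 0.00213) and 2.18-fold over villus (adjusted p = 0.00138), but its difference of 0.40 from GFPbright was not called (adjusted p = 0.187). The other pair of Sufu probe sets was below the receptor level. In hair follicle against villus, 1 of them was called in the opposite direction (-0.42, adjusted p = 0.0115) and the other was not called (-0.14, adjusted p = 0.476).

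**Figure D2:**
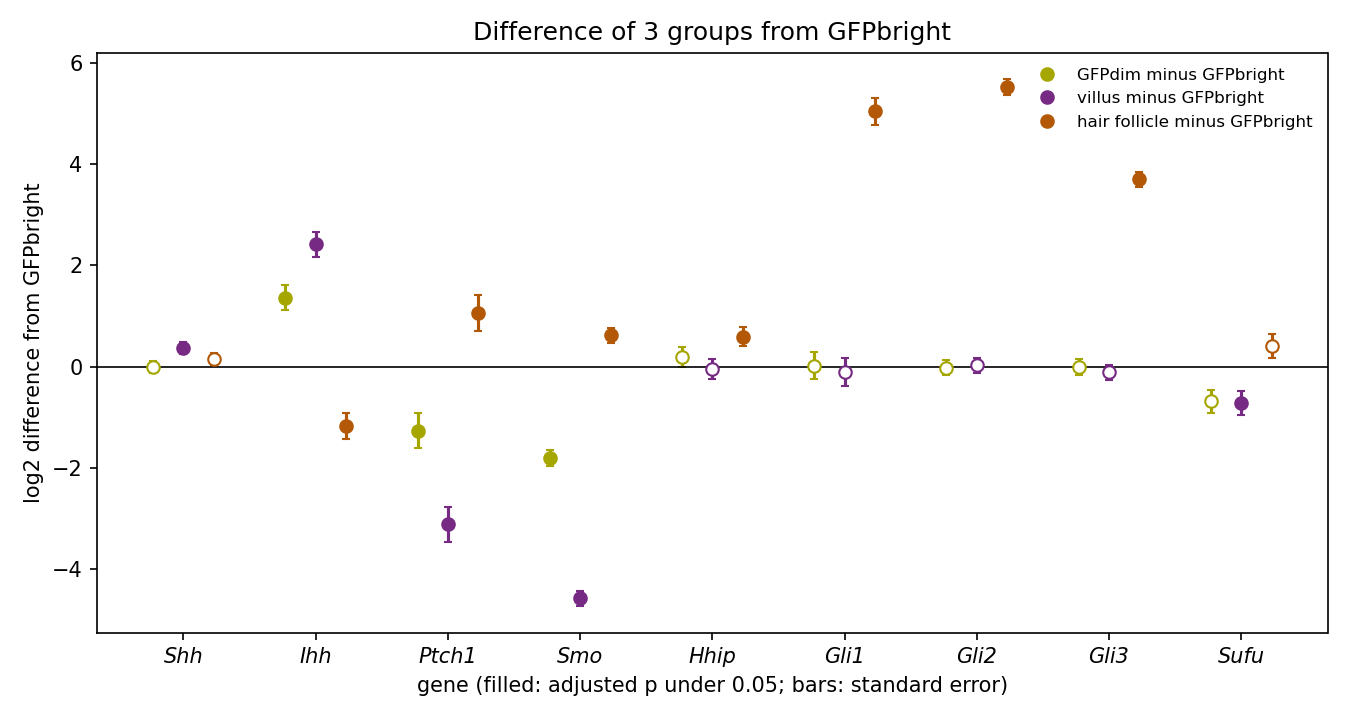
Log2 difference of each of the 9 genes from GFPbright in GFPdim, villus and hair follicle, with the standard error of the fit as bars. Filled points have an adjusted p under 0.05. Ihh lies above 0 and Smo and Ptch1 lie below 0 in GFPdim and villus. In hair follicle Gli1, Gli2 and Gli3 lie at 5.04, 5.52 and 3.70.

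Among the 9 genes, 3 were called between GFPdim and GFPbright (Ihh higher, Ptch1 and Smo lower), where 16.7% of all genes were called, 6.32% higher and 10.4% lower. The arrays of the pair of groups did not overlap for 4 of the 9, adding Sufu, and for 26.5% of all genes. Of all called genes in that comparison 37.9% were higher, a share that moved to 51.2% after quantile normalization and to 27.0% without the 3 arrays of opposite labels. Between villus and GFPbright 5 were called (Ihh and Shh higher, Ptch1, Smo and Sufu lower) against 48.9% of all genes (22.6% higher, 26.3% lower), and 3 without GFPbright 2 or without villus 1. Of all 17097 genes 8361 were called there, 7945 without GFPbright 2 and 7742 without villus 1. The groups did not overlap for 5 of the 9 and for 52.9% of all genes. Between villus and GFPdim 4 were called (Ihh and Shh higher, Ptch1 and Smo lower) against 42.1% (20.8% higher, 21.3% lower), and 2, Ihh and Smo, without the 3 arrays of opposite labels. With all arrays, 4 of the 9 did not overlap, as did 50% of all genes. In both villus comparisons the shares of the 9 genes were close to those of all genes.

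In hair follicle, 7 of the 9 genes were called against GFPbright, 6 higher and Ihh lower, where 48.6% of all genes were called, 19.4% higher and 29.1% lower. Against GFPdim 7 were called, 6 higher, with 46.2% of all genes called (21% higher, 25.2% lower), and against villus 8 were called, 7 higher, with 54.3% called (26.9% higher, 27.4% lower). The arrays did not overlap for 7, 7 and 9 of the genes in these comparisons, with 51.2%, 50.2% and 59.7% among all genes. The median log2 difference over the 9 genes was 0.62 against GFPbright, 2.33 against GFPdim and 3.82 against villus, while that of all genes was -0.06, -0.05 and -0.04. Between the intestinal groups the median of the 9 genes was -0.01 to -0.11, with -0.04 to 0.02 for all genes. These comparisons share arrays and are not independent of each other.

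Markers of other cell types were read in the same arrays. In hair follicle 7 of 8 genes of the hair matrix and inner root sheath passed the receptor level on average. The summed intensity of that list was 367.7 to 536.6 against 47.3 to 58 in the intestinal arrays. Most of the hair follicle sum was Gata3 (168.9 to 319.6) and Msx2 (77.2 to 136.8). Krt71 (8.0 to 10.1), Krt27 (7.0 to 11.6) and Krt31 (7.7 to 9.3) lay close to the level there, and Krt31 was higher in GFPbright (9.8 to 17.9). All 6 melanocyte genes passed the level in hair follicle, with sums of 846.8, 952.8 and 734.9 on the 3 arrays against 36.7 to 68.3 in the intestine. Of 7 fibroblast genes 3 passed the level in hair follicle, and Col1a2, Lum, Pdgfra and Dpt did not. The summed fibroblast level was 98.7, 77.6 and 119.7 on the 3 hair follicle arrays. In villus 4 of the 7 passed, and the sum was 69.3, 78.7 and 46 against 35.2 to 45 in GFPbright and GFPdim. On the second hair follicle array, where Ptch1, Gli1, Smo, Hhip and Sufu were highest, the melanocyte sum was the highest and the fibroblast sum the lowest of the 3. Of 6 dermal papilla genes 1 passed, with a sum of 32.6 to 34.9 against 26.7 to 32.3 elsewhere. All 7 leukocyte genes passed the level in villus, with a sum of 696.1 to 800.7, against 39.2 to 49 in hair follicle. In GFPbright and GFPdim that sum was almost all Lyz2, which was at 2137.5 to 4502.8 and at 7588.9 to 12664.8. The part of these marker genes in the Hedgehog values was not tested.

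Of the other genes of the pathway, 42 of 50 listed symbols were measured, and the list names Foxf1 and Adrbk1 by an alternative symbol as well. Against GFPbright, 8 of the 42 were called in GFPdim (1 higher, 7 lower), 23 in villus (6 higher, 17 lower) and 23 in hair follicle (18 higher, 5 lower). Over all genes 16.7%, 48.9% and 48.6% were called in these comparisons, so that the totals of both directions together were near the background. Split by direction, 6.32%, 22.6% and 19.4% of all genes were called higher, and 10.4%, 26.3% and 29.1% lower. The split of the 42 genes leaned further to lower in GFPdim and villus, and to higher in hair follicle, than that of all genes. The list was chosen with earlier results of these data known, so the lean is a description only. The median log2 difference of the 42 genes from GFPbright was -0.13 in GFPdim, -0.06 in villus and 0.24 in hair follicle.

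The co-receptors that help Ptch1 to bind ligand were all higher in hair follicle, 3 of 3 measured. Of all genes 19.4% were called higher there than in GFPbright. Boc had a mean of 14.1 ± 1.58 in GFPbright, 8.50 ± 0.265 in GFPdim, 6.37 ± 1.64 in villus and 255.3 ± 33.4 in hair follicle, 18.1-fold over GFPbright (log2 difference 4.18, SE 0.17, adjusted p = 7.67e-11). Cdon, a related receptor, had means of 28.6 ± 10.7, 17.6 ± 7.28, 13.5 ± 2.89 and 179.9 ± 17.3 in the same order, 6.56-fold over GFPbright in hair follicle (2.71, SE 0.29, adjusted p = 2.41e-06). Gas1 was near the receptor level, with 9.77 in hair follicle against 6.93 in GFPbright (0.51, adjusted p = 0.0153, and 0.0531 without the first hair follicle array). In villus, Boc (-1.17, adjusted p = 4.32e-05) and Cdon (-1.05, adjusted p = 0.00843, and 0.0502 without villus 1) were lower than in GFPbright, as was Boc in GFPdim (-0.72, adjusted p = 0.0106, and 0.069 without the 3 arrays of opposite labels).

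Among 6 genes that process or release the ligand, Scube2, whose product frees ligand from the cell surface, was at 136.5, 60.9 and 259.5 in hair follicle and under the receptor level on average in the intestine. It was at least 17.1-fold over GFPbright (4.75, SE 0.33, adjusted p = 2.27e-08). Disp2, a relative of the ligand exporter Disp1, was higher in GFPdim (13.5 ± 4.54) and villus (11.5 ± 2.86) than in GFPbright (5.33), by at least 1.71-fold (adjusted p = 0.0023) and at least 1.49-fold (adjusted p = 0.00164). The GFPdim call was lost without the 3 arrays of opposite labels (0.62, adjusted p = 0.214). Hhat, which attaches palmitate to the ligand, was slightly lower in villus than in GFPbright (-0.47, adjusted p = 0.00399), but not called with the mean of all its probe sets (-0.195, adjusted p = 0.101).

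Of 10 genes of the cilium and Smo trafficking, 7 were higher in hair follicle than in GFPbright and none was lower, against 19.4% and 29.1% of all genes. Gpr161, a ciliary receptor that restrains the pathway, was at 360.5, 258.3 and 370.2 in hair follicle against 5.95 in GFPbright, at least 43.1-fold (5.79, SE 0.17, adjusted p = 3.12e-12). Evc2, part of the complex that carries the Smo signal at the base of the cilium, was at least 4.95-fold higher (adjusted p = 1.75e-11), and Tulp3, which brings receptors such as Gpr161 into the cilium, 7.66-fold (adjusted p = 1.62e-09). In villus 5 of the 10 were lower than GFPbright and 1 was higher, against 26.3% and 22.6% of all genes. The higher one, Ift172, of the intraflagellar transport train, rose from 66.6 ± 8.01 to 281.2 ± 16.5 (2.09, SE 0.16, adjusted p = 5.6e-08). It was also called in hair follicle (0.50, adjusted p = 0.018), but not without GFPbright 3 (0.0551) or the second hair follicle array (0.0845).

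The 13 kinases and turnover factors of the Gli proteins were mixed. In villus 3 were higher and 5 lower than in GFPbright, in GFPdim none was higher and 4 lower, and in hair follicle 4 were higher and 2 lower. The shares of all genes called higher and lower were 22.6% and 26.3% for villus, 6.32% and 10.4% for GFPdim and 19.4% and 29.1% for hair follicle. Csnk1e, a casein kinase, had means of 84.5 ± 25.4 in GFPbright, 37.3 ± 5.59 in GFPdim, 13.7 ± 1.25 in villus and 155.6 ± 27.6 in hair follicle, which is lower in villus by 2.57 (SE 0.22, adjusted p = 1.79e-07) and higher in hair follicle by 0.92 (adjusted p = 0.00275). Prkacb, a catalytic subunit of protein kinase A, was lower in GFPdim (-1.49, adjusted p = 0.00314) and villus (-1.60, adjusted p = 0.000325) and higher in hair follicle (1.06, adjusted p = 0.00737, and 0.0513 with the mean of all its probe sets). Without the 3 arrays of opposite labels the GFPdim calls of Csnk1e and Prkacb were lost, with adjusted p-values of 0.148 and 0.0611. Cul3, a ubiquitin ligase scaffold that acts on Gli proteins, was higher in hair follicle (0.87, adjusted p = 0.000136), but not called with the mean of all its probe sets (0.22, adjusted p = 0.184).

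Against the others of that list, Prkaca, the other catalytic subunit, was higher in villus than in GFPbright (0.59, adjusted p = 0.0211) and lower in hair follicle (-0.81, adjusted p = 0.00308), and the villus call was lost without villus 1 (adjusted p = 0.0855) or villus 2 (0.0893). Ulk3 (0.56, adjusted p = 0.00108, at least 1.21-fold) and Gsk3a (0.30, adjusted p = 0.0452) were also higher in villus. The Gsk3a call was lost without any 1 of 8 arrays and without the 3 arrays of opposite labels (adjusted p = 0.062). Gsk3b was lower in hair follicle than in GFPbright (-0.61, adjusted p = 0.00699), but not called with the mean of all its probe sets (-0.15, adjusted p = 0.357).

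Of 6 genes that respond to Hedgehog ligand in gut mesenchyme, none was called between GFPdim and GFPbright, where 16.7% of all genes were called. In villus only Foxf1, a forkhead factor of gut mesenchyme, was higher, at 14.0, 15.8 and 26.1 against 7.0 to 9.6 in GFPbright (1.15, SE 0.18, adjusted p = 9.78e-05). Of all genes 22.6% were called higher in villus than in GFPbright, and 19.4% higher and 29.1% lower in hair follicle. The summed level of 6 smooth muscle and pericyte genes was 328.3, 506.1 and 39.5 on the same villus arrays and 35 to 108.5 in GFPbright, and its part in the Foxf1 values was not tested. In hair follicle Sfrp1, a secreted Wnt inhibitor, was at 1218.7, 1633.2 and 1287.9 against 5.15 in GFPbright, at least 181-fold (8.06, SE 0.15, adjusted p = 1.95e-14), and Bmp4 was at 8.33 against 4.48 (0.90, adjusted p = 9.38e-06). Foxf1 was lower in hair follicle than in GFPbright (-0.48, adjusted p = 0.0457), a call lost when any 1 of 10 arrays was left out, without the 3 arrays of opposite labels (adjusted p = 0.162) and with the mean of all its probe sets (-0.015, adjusted p = 0.939).

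The 4 response genes of skin and tumours are cell cycle and survival genes with many other inputs. All 4 were lower in villus than in GFPbright, where 26.3% of all genes were called lower. Ccnd1, cyclin D1, fell from 639.8 ± 72.1 to 16.2 ± 5.20 (-5.36, adjusted p = 1.86e-08), Ccnd2 from 1391 ± 238 to 188.8 ± 14.3 (-2.87, adjusted p = 1.2e-07) and Mycn from 55.6 ± 34.3 to 8.80 ± 0.557 (-2.42, adjusted p = 0.000216). In hair follicle Mycn was higher than in GFPbright (197.4 ± 38.4, log2 difference 2.06, adjusted p = 0.00087), while Ccnd1 (-1.15, adjusted p = 0.0173) and Ccnd2 (-1.07, adjusted p = 0.00146) were lower. Ccnd1 in hair follicle was measured at 243.8, 624.6 and 155.3, and its call was lost without the first array (adjusted p = 0.0684), without the third (0.115) or without the 3 arrays of opposite labels (0.0629).

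**Figure D3:**
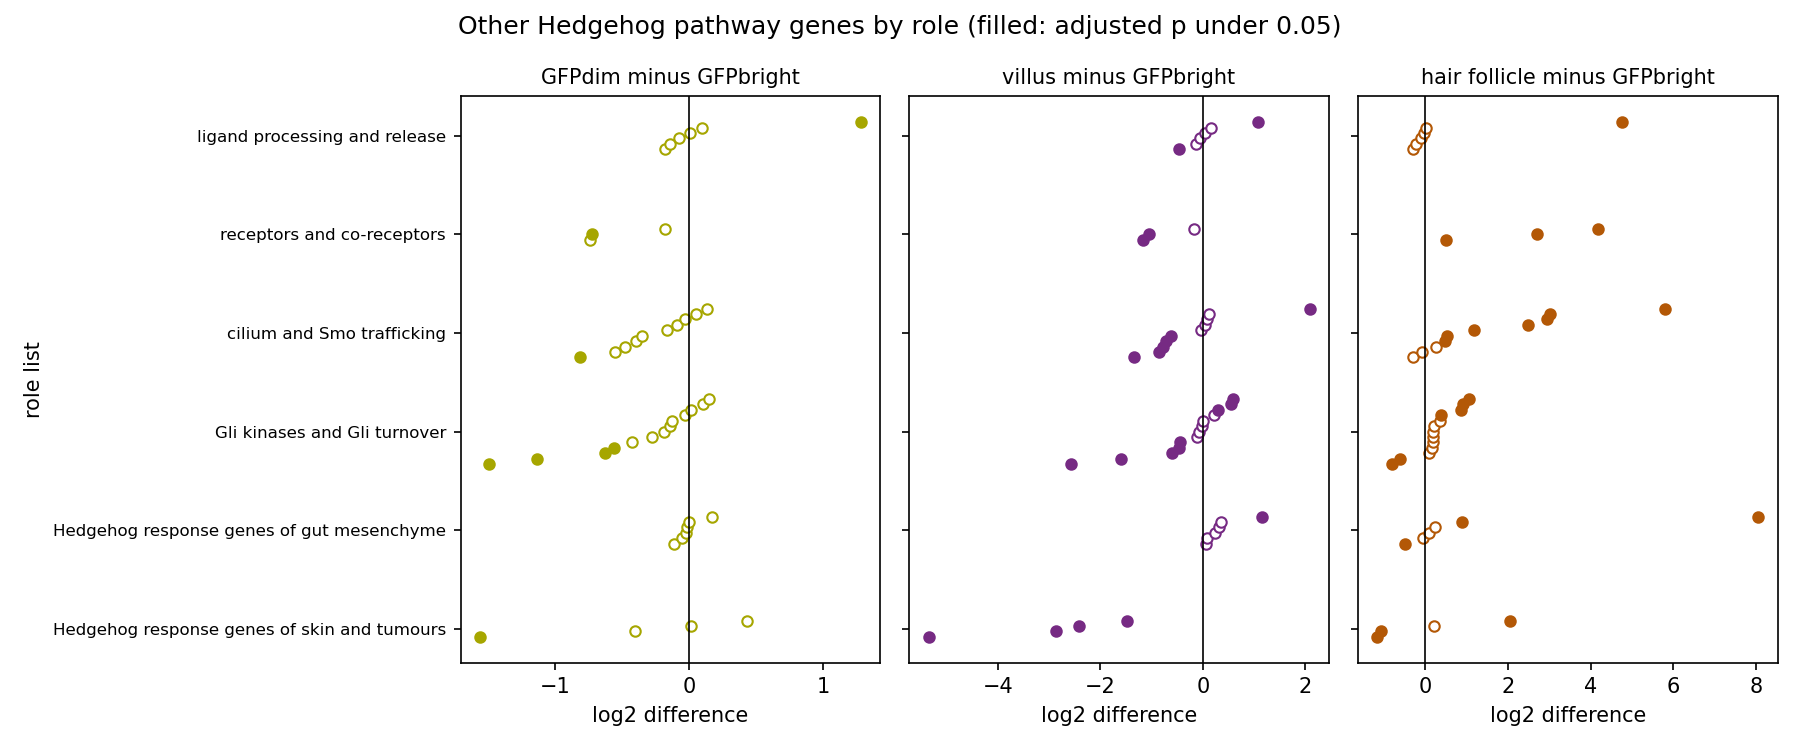
Log2 difference from GFPbright of the 42 other pathway genes in GFPdim, villus and hair follicle, with 1 point per gene and 1 row per role; each panel has its own horizontal scale. The 3 co-receptors and 7 of 10 cilium genes are higher in hair follicle, where 19.4% of all genes were called higher. All 4 skin and tumour response genes are lower in villus, where 26.3% of all genes were called lower.

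The promoters of the pathway genes were searched for GACCACCCA, the core sequence bound by Gli proteins, and for the looser GACCNCCCA, on both strands, in the RefSeq windows (GRCm38.p6) of 300 bases around the start site. The looser motif includes the stricter one. The 7 genes with a window, which were Ihh, Ptch1, Smo, Hhip, Gli2, Gli3 and Sufu, held neither. Shh and Gli1 had no window. The other pathway genes that had a window held neither motif. Among all 32851 windows, 0.253% held the first motif and 0.977% the second. At shares this low so few windows would mostly hold none, so the search cannot tell these genes from others.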

How the data were processed

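RNA of 13 samples was hybridised to Affymetrix HT MG-430 PM arrays. The deposited intensities were made by the authors with RMA-sketch in Affymetrix Power Tools (no version was found in labels or methods), which subtracts background, normalizes between arrays and summarises each probe set, and can compress differences of dim probe sets. The deposited linear intensities were taken to log2 with no further step. Of 45141 probe sets, 28898 name 1 gene, 551 name several and 15692 are unnamed here. Each of 17097 genes was read at its brightest probe set by mean log2; 7180 have several. Differences were estimated with limma 3.58.1 in R 4.3.3, with 4 group means fitted to all 13 arrays, with Benjamini-Hochberg adjustment over all genes and a call at an adjusted p under 0.05. Genes, markers and pathway lists were chosen with earlier results of these data known. Where a group had no array above the receptor level, the fold is a bound against the higher of that level and its own signal on each array. Named pathway genes are, per role, the 3 with the largest called difference from GFPbright and those against their list; the most similar genes are the 3 with the highest Pearson r. The code was tested on simulated data.

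By a code in the titles, 3 sorts gave both a GFPbright and a GFPdim array. Their residuals correlated at 0.291, 0.320 and 0.451, so the codes were taken as pairs and the sort was tried as a block. The second hair follicle array carries the same code as GFPbright 3 and GFPdim 2, with correlations of 0.0131 and 0.103. Other alternatives were quantile normalization, an offset of 16, a filter on dim genes, all probe sets or their mean, fewer groups, an intensity trend, the methods' t-test and leaving out arrays.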

Additional observations from a re-analysis of the deposited data

How the results depend on the processing

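Of 41 differences of the 9 genes with at least 1 group above the receptor level, 32 were called, and 23 of these kept call and direction under all of the 22 to 24 alternatives tried for each. Among 39 called differences of the other pathway genes named, 21 did so. The count of called members was 2 in place of 4 for villus against GFPdim without the 3 arrays of opposite labels. Leaving out 1 array at a time, it ranged from 2 to 4 for GFPdim against GFPbright, 3 to 5 for villus against GFPbright, 3 to 4 for villus against GFPdim, 5 to 7 for hair follicle against GFPbright, 7 to 8 against GFPdim and 7 to 8 against villus. For the 42 other pathway genes the ranges were 7 to 10, 19 to 24, 8 to 13, 20 to 24, 23 to 27 and 29 to 32. The called counts of all 17097 genes moved as well. Between the intestinal groups they were 2177 to 3193, 7742 to 8606 and 6570 to 7318, in the order above. For hair follicle they were 7669 to 8548 against GFPbright, 7287 to 7891 against GFPdim and 8681 to 9533 against villus.

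With the sort as a random replicate block, 4 members were called between GFPdim and GFPbright, and Sufu (adjusted p = 0.0364) was the only member call that it changed. As a fixed block in 6 arrays the count was 3, and the log2 difference of Ptch1 was -1.34 (adjusted p = 0.00185). Over all genes 3406 were called with the random block and 3067 with the fixed block, against 2853 without a block.

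Other calls were lost with the mean of all probe sets (Ptch1 GFPdim to GFPbright, -0.55, and hair follicle to GFPbright, 0.69; Sufu villus to GFPbright, -0.17, and hair follicle to villus, 0.19), with the offset (Ptch1 GFPdim to GFPbright, -1.13; Ihh hair follicle to GFPbright, -0.37) and with quantile normalization (Sufu villus to GFPbright, -0.48; Hhip hair follicle to GFPbright, 0.48, and to villus, 0.45). Ptch1 in hair follicle against GFPbright was lost with only these groups fitted (adjusted p = 0.0532) and without the 3 arrays (0.0672). The cause was not tested.

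Directions turned only among uncalled differences. After quantile normalization, villus minus GFPbright was 0.029 for Hhip and -0.002 for Gli2, and villus minus GFPdim was 0.064 for Sufu, which was 0.146 with the mean of probe sets. Without the 3 arrays, Sufu was 0.519 for villus minus GFPdim and Hhip -0.01 for hair follicle minus GFPdim. Leaving out 1 array at a time, Hhip ranged from -0.011 to 0.301 for GFPdim minus GFPbright and from -0.129 to 0.026 for villus minus GFPbright, Gli2 from -0.045 to 0.107 for villus minus GFPbright and from -0.029 to 0.168 for villus minus GFPdim, and Sufu from -0.309 to 0.113 for villus minus GFPdim. Signals near the receptor level, as for Hhip, Gas1 and Bmp4, limit what these arrays can show.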

Other observations

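The genes with the most similar pattern to each pathway gene over the 13 arrays were looked up among 12140 genes above the receptor level in some group, as a description, since the arrays share groups. For Smo the closest was Notch1, the receptor that keeps crypt base cells undifferentiated, at r = 0.991, with mean intensities of 574.8 in GFPbright, 137.6 in GFPdim, 20.9 in villus and 1157 in hair follicle, followed by Sap30 and Slc20a2 (both 0.989). For Gli1 it was Sostdc1, a secreted inhibitor of BMP and Wnt signals, at 0.998, with 1059 in hair follicle and 5.50 to 6.77 in the intestine, followed by Frem2 and Dlx2 (both 0.996). Gli2 was closest to Fscn1 (0.999), Lmo1 and Capns2 (both 0.998), and Gli3 to Serpinb11, Bnc1 (both 0.997) and Camsap2 (0.996).

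Ihh ran closest to Sowaha (0.987), Tmem86a and Tmem181c-ps (both 0.984), and Ptch1 to Kifap3 (0.976), Puf60 and Slc7a2 (both 0.972). The lowest similarities were those of Hhip, with S1pr2 at 0.914, Pcdhb16 at 0.911 and Proca1 at 0.893, and of Sufu, with Foxred2 at 0.946, Pdxp at 0.937 and Polh at 0.932.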
